A study of Homo sapiens with 4 samples.

Results

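The ANP32 family and the histone chaperones of S phase were examined as 10 genes, ANP32A, ANP32B, ANP32E, SET, NAP1L1, NAP1L4, CHAF1A, CHAF1B, ASF1B and NASP, chosen by symbol from the 18885 genes with a value. All 10 were measured and all passed the limit on low values, which kept 16937 genes. RNA was sequenced from MV4-11, a human acute myeloid leukemia (AML) cell line with a KMT2A rearrangement, in 2 libraries of control cells (NC) and 2 of cells in which ANP32B was knocked down by an shRNA (sh-ANP32B). The labels give the shRNA of the NC cells as none, whereas the study describes a control hairpin, sh-NC, together with lentiviral delivery and puromycin selection. If the NC cells carried no hairpin, an effect of the virus or of selection cannot be told apart from the loss of ANP32B. The study made 3 hairpins against ANP32B, and the labels do not say which was sequenced. Both knockdown libraries carry the mark S3, so that they represent 1 hairpin mark.

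Histone chaperones bind histones outside the nucleosome and hand them on during the assembly, exchange and removal of nucleosomes. In S phase, NASP keeps a soluble reserve of H3-H4, ASF1 passes H3-H4 dimers on, and chromatin assembly factor CAF-1 deposits them on newly copied DNA, where it binds PCNA. The ANP32 proteins, which join leucine-rich repeats to an acidic tail, and SET, an acidic protein of the nucleosome assembly protein family, bind histones and are also known as inhibitors of the phosphatase PP2A or of histone acetylation.

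Expression was given as TPM, a length-corrected measure of transcript abundance scaled to nearly the same total in every library. The totals lay between 997271 and 998546, and such values keep no trace of how many reads lay behind them, which leaves the depth of each library unknown. The median gene differed between replicates by 0.112 on the log2 scale in NC and by 0.113 in sh-ANP32B. Changes were tested by limma on log2(TPM + 1), and a gene was called at a Benjamini-Hochberg adjusted p below 0.05. The labels do not say whether replicates were separate cultures. The p-values rest on the spread between these libraries, which limma takes in part from other genes of similar level. With 2 against 2 libraries, an exact two-sided permutation test of one gene cannot give a p below 0.333. In such bulk samples, fewer cells in a state and less RNA per cell cannot be told apart. Markers of myeloid leukemia were present, with values for 8 of 9 genes, and their summed level was 781 and 793 TPM in NC and 1207 and 1197 TPM in sh-ANP32B. Of these 8, 5 were higher by limma, 1 was lower and 2 were not called. CD4, at 381 and 383 TPM in NC and 619 and 618 TPM in sh-ANP32B, made up much of the sum, and ITGAM, a surface marker of mature myeloid cells, rose from 3.51 and 3.59 TPM to 26.1 and 26.4 TPM. MEIS1 was lower (-0.61 on the log2 scale, adjusted p = 0.00138), and FLT3 (-0.15) and HOXA9 (-0.07) were not called. Their part in the changes of the 10 genes was not tested. MPO was the marker without a value. Among markers of other cell types, the liver gene ALB reached at most 1.48 TPM in any library.

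Of the 10 genes, 9 were lower after knockdown, none was higher by limma, also at an unadjusted p below 0.05, and 1, NAP1L4, was not called. Among all genes tested, 19.7% were called lower and 26.0% higher by the same limma test. A fall of more than 0.5 on the log2 scale was also reached by 6 of the 10, against 10.1% of all genes. Both knockdown libraries lay below both NC libraries for 9 of the 10, against 32.1% of all genes. ANP32B, the target of the hairpin, is among these counts, and without it 8 of 9 genes were lower and 5 fell beyond 0.5. The median log2 fold change was -0.88 over the 10 genes and -0.86 without ANP32B, and it was 0.08 over all genes tested. The 10 genes together held 2155 and 2154 TPM in NC and 1237 and 1248 TPM in sh-ANP32B, or 57.7% of the NC mean.

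**Figure D1:**
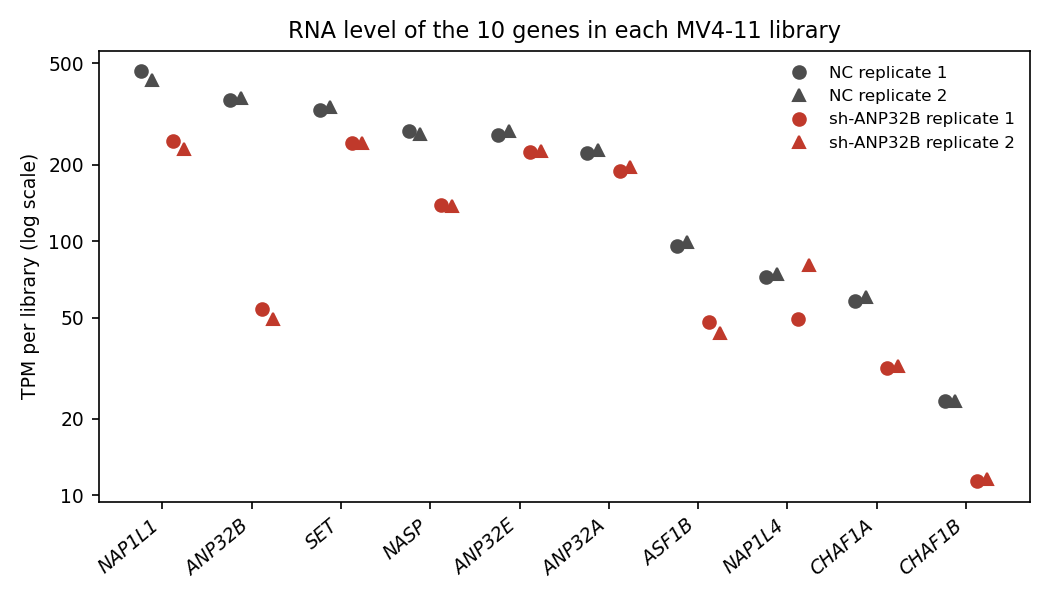
TPM of each of the 10 genes in the 2 NC and the 2 sh-ANP32B libraries, on a log axis, with 1 point per library, NC in grey, sh-ANP32B in red, replicate 1 as circles and replicate 2 as triangles. The points of the groups overlap for NAP1L4 alone, whose knockdown libraries were at 49.3 and 80.3 TPM.

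The starts of the genes of replication-coupled assembly are shown because these genes fell together, and ANP32A is set beside them as a family member with a small change. Promoter windows of 280 bases, from 250 bases before the transcription start, were taken from RefSeq on GRCh38.p14 for 9 of the 10 genes. Each runs 5′ to 3′ on the strand of its gene, and capitals mark every match, on either strand, to the words searched. The E2F word was TTGGCGC or the variant TTCGCGC or the variant TTCCCGC or the variant TTGCCGC. The other words were the CCAAT box, the cell cycle element called CHR, searched as TTTGAA, and the E-box, searched as CACGTG. A match to one word may overlap a match to another. The windows are chr19:4402390-4402669 on the plus strand for CHAF1A, chr21:36385142-36385421 on the plus strand for CHAF1B, chr19:14136560-14136839 on the minus strand for ASF1B, chr1:45583791-45584070 on the plus strand for NASP and chr15:68820866-68821145 on the minus strand for ANP32A.
CHAF1A: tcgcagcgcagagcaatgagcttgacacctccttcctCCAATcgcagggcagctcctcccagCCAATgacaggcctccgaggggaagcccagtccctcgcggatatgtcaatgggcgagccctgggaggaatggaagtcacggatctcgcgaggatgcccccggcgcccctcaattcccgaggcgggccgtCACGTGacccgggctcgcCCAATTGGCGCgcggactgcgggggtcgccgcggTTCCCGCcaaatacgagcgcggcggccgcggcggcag
CHAF1B: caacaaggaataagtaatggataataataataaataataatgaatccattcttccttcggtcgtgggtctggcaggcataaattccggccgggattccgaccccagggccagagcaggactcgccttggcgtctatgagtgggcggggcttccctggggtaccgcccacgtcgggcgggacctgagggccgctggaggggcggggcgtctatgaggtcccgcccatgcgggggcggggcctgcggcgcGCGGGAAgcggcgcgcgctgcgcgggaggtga
ASF1B: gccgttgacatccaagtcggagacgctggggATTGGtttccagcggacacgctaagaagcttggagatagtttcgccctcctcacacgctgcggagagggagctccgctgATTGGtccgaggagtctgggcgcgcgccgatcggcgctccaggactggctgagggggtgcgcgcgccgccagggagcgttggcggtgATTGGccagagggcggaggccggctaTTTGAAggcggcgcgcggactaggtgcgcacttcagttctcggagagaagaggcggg
NASP: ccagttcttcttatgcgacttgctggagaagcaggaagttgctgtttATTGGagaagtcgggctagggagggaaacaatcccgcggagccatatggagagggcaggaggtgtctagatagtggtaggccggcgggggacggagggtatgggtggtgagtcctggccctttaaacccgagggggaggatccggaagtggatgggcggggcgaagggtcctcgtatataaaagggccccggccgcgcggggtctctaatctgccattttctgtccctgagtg
ANP32A: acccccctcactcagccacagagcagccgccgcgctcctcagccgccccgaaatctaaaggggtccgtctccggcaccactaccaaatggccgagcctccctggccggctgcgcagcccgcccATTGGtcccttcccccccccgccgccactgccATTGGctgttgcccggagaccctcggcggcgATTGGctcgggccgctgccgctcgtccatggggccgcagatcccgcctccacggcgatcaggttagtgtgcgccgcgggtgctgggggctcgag

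The CHAF1A window held E2F words whose first bases lay at positions -37 and -7 from the start, 4 CCAAT boxes, of which the last pair overlapped the E2F word at -37, and an E-box at -59. The CHAF1B window held a single match, an E2F word at -2. ASF1B held CCAAT boxes at -219, -140 and -53 and a CHR word at -27, whereas NASP held only a CCAAT box at -203. ANP32A held CCAAT boxes at -127, -95 and -64 and none of the other words. Taking the first start listed for each gene, E2F words were in 4 of the 9 windows (CHAF1A, CHAF1B, NAP1L1 and NAP1L4), against 12.3% of 27305 promoters of the same length. CCAAT boxes were in 6 of 9, against 34.7% of promoters, an E-box in 2 (CHAF1A and ANP32B), against 7.14%, and the CHR word in 1 (ASF1B), against 14.7%. These matches describe letters in the windows, and binding was not measured.

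ANP32B (ENSG00000136938, hg38 chr9:97983341-98015943, plus strand, 7 exons), the target of the shRNA, binds H3-H4 and shields histones through its acidic tail. Its TPM was 358 and 364 in the NC libraries and 54.1 and 49.3 in the sh-ANP32B libraries. The knockdown libraries lay far below both NC libraries, in the direction the labels give, and kept 14.3% of the NC mean. The log2 fold change was -2.78 (SE 0.0558, 95% interval -2.92 to -2.64, adjusted p = 2.89e-05 by limma), and 0.0236% of tested genes had a lower one.

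ANP32A (ENSG00000140350, hg38 chr15:68778535-68820897, minus strand, 7 exons) encodes a PP2A inhibitor and a component of the complex that blocks histone acetylation. Its TPM was 222 and 227 in NC and 188 and 195 in sh-ANP32B. The groups did not overlap, and the knockdown mean was 85.4% of the NC mean. The log2 fold change was -0.23 (SE 0.0410, interval -0.33 to -0.12, adjusted p = 0.00768 by limma). A lower fold change was seen for 27.2% of tested genes, so that the change of ANP32A was small among all genes.

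ANP32E (ENSG00000143401, hg38 chr1:150218417-150236156, minus strand, 7 exons) encodes the chaperone that takes the histone variant H2A.Z out of nucleosomes. It was at 263 and 272 TPM in NC and at 224 and 225 TPM in sh-ANP32B. The groups again did not overlap, with a knockdown mean at 84.0% of NC. Its log2 fold change of -0.25 (SE 0.0384, interval -0.35 to -0.16, adjusted p = 0.00423 by limma) was close to that of ANP32A, and a difference between the genes was not tested.

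Within the family, the makeup of the RNA shifted with the loss of ANP32B. The sum of ANP32A, ANP32B and ANP32E was 843 and 863 TPM in NC and 466 and 470 TPM in sh-ANP32B, or 54.9% of the NC mean. ANP32B took 42.5% and 42.1% of this sum in NC and 11.6% and 10.5% in sh-ANP32B. ANP32E then held the largest share, 48.0% and 47.9% in sh-ANP32B against 31.2% and 31.5% in NC, and the ANP32A share was 40.4% and 41.6% against 26.3% and 26.3%. These shares rose although the levels of ANP32A and ANP32E did not: their sum was 484 and 499 TPM in NC and 412 and 421 TPM in sh-ANP32B, 84.6% of the NC mean. No gene of this trio was higher in sh-ANP32B, and what remained of the family RNA was mostly ANP32E and ANP32A.

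**Figure D2:**
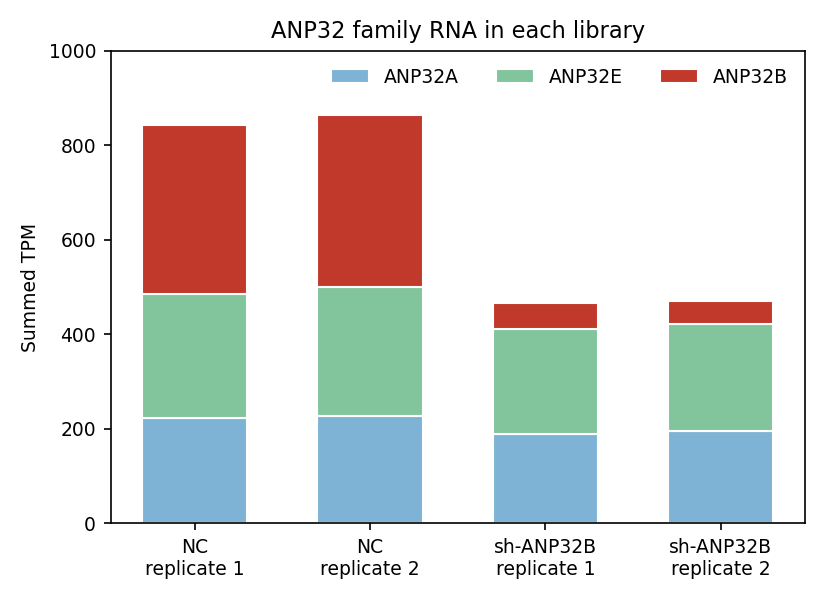
Stacked TPM of ANP32A, ANP32B and ANP32E in each of the 4 libraries, on a linear axis from 0. The sums were 843 and 863 TPM in NC and 466 and 470 TPM in sh-ANP32B, and the ANP32B part shrank to 11.6% and 10.5% of the sum.

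SET (ENSG00000119335, hg38 chr9:128683424-128696400, plus strand, 8 exons) encodes the partner of ANP32A in the complex that blocks histone acetylation. Its TPM was 327 and 338 in NC and 244 and 242 in sh-ANP32B. All SET values in the knockdown were lower than in NC, at 73.1% of the NC mean, with a log2 fold change of -0.45 (SE 0.0377, interval -0.54 to -0.36, adjusted p = 0.000537 by limma). The ratio of SET to ANP32A was 1.47 and 1.49 in NC and 1.30 and 1.24 in sh-ANP32B. Near copies of SET are numerous, with 20 named in the annotation. Of 33 named near copies of the 10 genes, 4 had a value, and 3 reached 1 TPM in a library. The highest of these, SETP14, was at 3.04 and 4.50 TPM in NC and at 4.28 and 2.79 TPM in sh-ANP32B, SETP5 stayed at or below 1.11 TPM and NAP1L4P1 at or below 2.23 TPM. How reads shared with such copies were assigned is not given in the sources used here, so the levels of SET carry that uncertainty.

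NAP1L1 (ENSG00000187109, hg38 chr12:76036585-76084735, minus strand, 15 exons) encodes a nucleosome assembly protein that carries H2A-H2B. It had the highest level of the 10 genes in NC, 466 and 431 TPM, and was at 249 and 230 TPM in sh-ANP32B. The knockdown libraries lay well below the NC libraries, at 53.4% of the mean, and the log2 fold change was -0.90 (SE 0.0578, interval -1.05 to -0.76, adjusted p = 0.000261 by limma). NAP1L1 shares 348 exonic bases with a processed pseudogene on the opposite strand, which had at most 1.82 TPM in any library.

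NAP1L4 (ENSG00000205531, hg38 chr11:2944431-2992377, minus strand, 16 exons), a related H2A-H2B carrier, was the exception. Its TPM was 72.0 and 74.5 in NC but 49.3 and 80.3 in sh-ANP32B, so that one knockdown library lay below and the other above both NC libraries. The knockdown replicates differed by 0.69 on the log2 scale, more than those of 95.2% of tested genes. The log2 fold change was -0.21 (SE 0.213, interval -0.75 to 0.32, adjusted p = 0.450 by limma), and the interval includes falls as large as that of SET. The value rests on which knockdown library is used: it was 0.13 (adjusted p = 0.174) without sh-ANP32B replicate 1 and -0.56 (adjusted p = 0.00342) without sh-ANP32B replicate 2. The ratio of NAP1L1 to NAP1L4 was 6.47 and 5.78 in NC and 5.04 and 2.87 in sh-ANP32B, the lowest ratio being in the library with high NAP1L4. NAP1L4 shares 84 exonic bases with a long noncoding RNA (lncRNA) gene on the opposite strand. That gene was at 0.411 and 0.486 TPM in NC and at 0.584 and 1.39 TPM in sh-ANP32B, and its part in the NAP1L4 values was not tested. A direction for NAP1L4 cannot be read from these libraries.

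**Figure D3:**
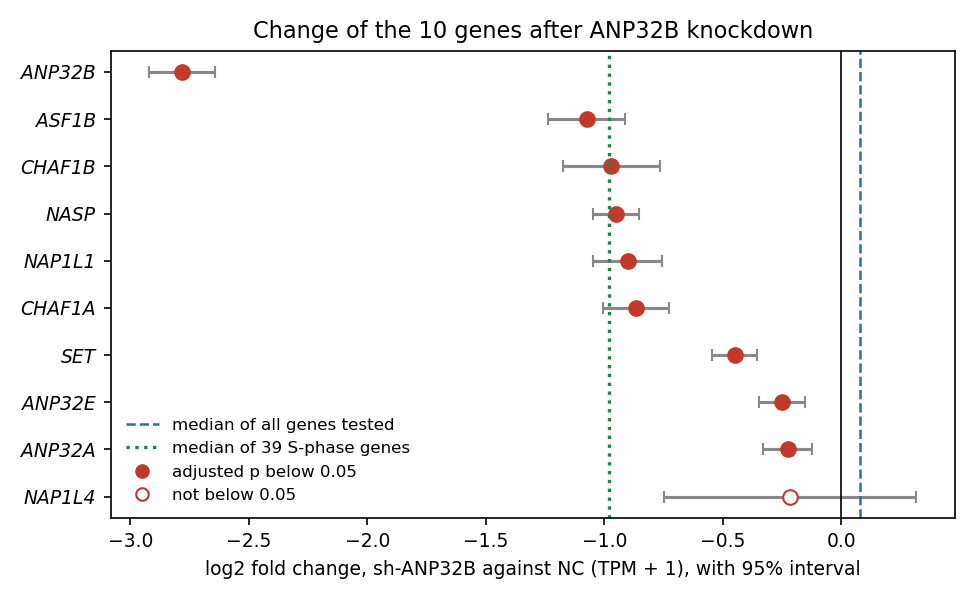
Log2 fold change of each gene in sh-ANP32B against NC on the log2(TPM + 1) scale, with its 95% interval, where filled points have an adjusted p below 0.05. The dashed line marks the median of all genes tested, 0.08, and the dotted line the median of 39 S-phase genes, -0.98, near which ASF1B, CHAF1B, NASP, NAP1L1 and CHAF1A lie.

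CHAF1A (ENSG00000167670, hg38 chr19:4402640-4445018, plus strand, 15 exons) encodes the large subunit of CAF-1, which binds PCNA. Its TPM was 58.3 and 60.1 in NC and 31.8 and 32.3 in sh-ANP32B. Replicates were close and the groups far apart, with a knockdown mean at 54.2% of NC and a log2 fold change of -0.86 (SE 0.0559, interval -1.004 to -0.725, adjusted p = 0.000266 by limma). CHAF1A shares 20 exonic bases with UBXN6 on the opposite strand, whose value was -0.02 on the log2 scale (adjusted p = 0.849). It also shares 81 exonic bases with a lncRNA gene on the opposite strand, which had at most 0.899 TPM in any library.

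CHAF1B (ENSG00000159259, hg38 chr21:36385392-36419015, plus strand, 14 exons), the middle subunit of CAF-1, which binds ASF1, was the lowest of the 10 genes. It was at 23.5 and 23.6 TPM in NC and at 11.4 and 11.6 TPM in sh-ANP32B. The groups were separated by far more than the replicates, and the knockdown mean was 48.9% of NC, with a log2 fold change of -0.97 (SE 0.0822, interval -1.18 to -0.77, adjusted p = 0.000556 by limma). Of its exonic bases, 89 are shared with MORC3 on the same strand, and MORC3 rose by 0.33 on the log2 scale (adjusted p = 0.00665 by limma), the direction opposite to CHAF1B.

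Both CAF-1 subunits among the 10 genes fell, and the ratio of CHAF1A to CHAF1B was 2.49 and 2.55 in NC and 2.79 and 2.78 in sh-ANP32B. The third subunit, RBBP4, a histone-binding protein that is also part of several other chromatin complexes, was at 147 and 145 TPM in NC and at 102 and 101 TPM in sh-ANP32B (log2 fold change -0.52, adjusted p = 0.000434 by limma). The ratio of CHAF1A to RBBP4 was 0.398 and 0.413 in NC and 0.311 and 0.319 in sh-ANP32B, below NC in both libraries.

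ASF1B (ENSG00000105011, hg38 chr19:14119512-14136613, minus strand, 4 exons), the ASF1 paralog tied to proliferating cells, hands H3-H4 to CAF-1. Its TPM was 95.5 and 99.4 in NC and 48.1 and 43.6 in sh-ANP32B. ASF1B had the largest fall after ANP32B itself, to 47.0% of the NC mean, with a log2 fold change of -1.07 (SE 0.0650, interval -1.24 to -0.91, adjusted p = 0.000230 by limma). Its paralog ASF1A, which serves assembly outside S phase as well, was at 24.9 and 25.0 TPM in NC and at 22.0 and 21.1 TPM in sh-ANP32B (log2 fold change -0.20, interval -0.38 to -0.02, adjusted p = 0.0670 by limma). ASF1A was called lower with median-of-ratios scaling (-0.30, adjusted p = 0.0213) and with quantile normalization (-0.23, adjusted p = 0.0447). The ratio of ASF1B to ASF1A was 3.84 and 3.98 in NC and 2.19 and 2.07 in sh-ANP32B, and the libraries of the groups did not overlap in it.

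NASP (ENSG00000132780, hg38 chr1:45583846-45618904, plus strand, 15 exons), the chaperone of the soluble H3-H4 pool, was at 272 and 264 TPM in NC and at 138 and 138 TPM in sh-ANP32B. The knockdown replicates were nearly equal and lay at 51.5% of the NC mean. The log2 fold change was -0.95 (SE 0.0385, interval -1.05 to -0.86, adjusted p = 9.93e-05 by limma), and 2.11% of tested genes had a lower one. Exons of NASP and of ASF1B overlap lncRNA genes on the opposite strand by 67 and 70 bases, respectively, and no level of these lncRNAs was analysed here. Handling of strand in the TPM is not given in the sources used here.

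Because TPM are per length, levels can be set in order across genes. In NC the order of mean levels was NAP1L1 (448 TPM), ANP32B (361 TPM), SET (332 TPM), NASP (268 TPM), ANP32E (267 TPM), ANP32A (225 TPM), ASF1B (97.4 TPM), NAP1L4 (73.3 TPM), CHAF1A (59.2 TPM) and CHAF1B (23.5 TPM). The ranges of the NC libraries overlapped for NASP and ANP32E only. In sh-ANP32B, SET (243 TPM) and NAP1L1 (239 TPM) came first with overlapping ranges, followed by ANP32E (224 TPM), ANP32A (192 TPM) and NASP (138 TPM). NAP1L4 (64.8 TPM) and ANP32B (51.7 TPM) came next, also with overlapping ranges, and ASF1B (45.8 TPM), CHAF1A (32.0 TPM) and CHAF1B (11.5 TPM) were last. ANP32B thus went from the second place to the seventh, and NASP from a level near that of ANP32E to one below ANP32A.

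Other genes of replication-coupled assembly and histone handling were set beside the 10. Of 12 such genes, 10 were lower, 2 were not called, and none was higher by limma at an adjusted or unadjusted p below 0.05. For this list and those below, the shares of all genes tested were 19.7% called lower and 26.0% called higher. The median log2 fold change of the 12 genes was -0.65, against 0.08 for all genes. The lowest were MCM2, a helicase subunit that binds parental H3-H4, at -1.20 (adjusted p = 8.67e-05 by limma), and PCNA, the clamp that recruits CAF-1, at -1.07 (adjusted p = 6.68e-05). TONSL, which reads newly made H4, changed by -0.91, its partner MMS22L by -0.79, RBBP7 by -0.81, SLBP, which binds histone mRNA, by -0.71, DNAJC9 by -0.59 and HAT1, which acetylates new H4, by -0.56. The importin gene IPO4, which was not called, was at 15.8 and 44.6 TPM in NC and at 23.7 and 24.3 TPM in sh-ANP32B. Its value was -0.15 (adjusted p = 0.811), but -0.87 without NC replicate 1 and 0.58 without NC replicate 2.

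Among 10 chaperones of H3.3 and of the centromere, 4 were lower, none was higher and 6 were not called, with a median of -0.20. The genes that fell included HJURP, the chaperone of CENP-A at the centromere (-1.13, adjusted p = 0.000278 by limma), MIS18A (-0.87) and OIP5 (-0.57), which also serve the centromere. Genes of H3.3 deposition were not called as deposited, and HIRA was at 42.1 and 44.6 TPM in NC and at 43.3 and 42.9 TPM in sh-ANP32B, with an interval of -0.16 to 0.14. UBN2, a subunit of the HIRA complex, had the highest value, 0.37 (adjusted p = 0.0669 by limma), and was the 1 gene of this list that was higher at an unadjusted p below 0.05. With median-of-ratios scaling, 7 of these 10 genes were called lower, and the 3 gained were genes of H3.3 deposition, UBN1 (-0.27), ATRX (-0.27) and CABIN1 (-0.25), named after their values were seen. UBN1 was also called with quantile normalization (-0.20, adjusted p = 0.0483), so that which genes of the list were called depends on the scaling.

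FACT, which moves H2A-H2B in transcription and replication, has the subunits SSRP1 and SUPT16H. SSRP1 was at 219 and 221 TPM in NC and at 112 and 109.5 TPM in sh-ANP32B (log2 fold change -0.99, adjusted p = 9.69e-05 by limma), and SUPT16H was at 165 and 166 TPM against 109 and 110.3 TPM (-0.59, adjusted p = 0.000296). The ratio of SUPT16H to SSRP1 was 0.752 and 0.748 in NC and 0.977 and 1.01 in sh-ANP32B, and the groups did not overlap. In the list of 6 FACT and elongation chaperones, IWS1, named after its value was seen, was also lower (-0.19, adjusted p = 0.0425), but not with any library left out. SUPT5H (0.13) and SPTY2D1 (0.12) had the highest values and were not called, and the list median was -0.08.

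The acidic, nucleolar and H2A-type chaperones had values for 12 of 17 genes, of which 9 were lower, 1 was higher and 2 were not called, with a median of -0.51. NPM3 changed by -1.19, nucleolin (NCL) by -0.85, C1QBP by -0.80, and SART3 by -0.53. NPM1, the nucleolar H2A-H2B and H3-H4 chaperone, was at 1417 and 1287 TPM in NC and at 758 and 763 TPM in sh-ANP32B (-0.83, adjusted p = 0.000252 by limma). PTMA, whose acidic protein binds linker histone, was at 2526 and 2476 TPM against 1506 and 1565 TPM (-0.70, adjusted p = 0.000170). SRCAP, the motor that places H2A.Z, was called higher at 0.17 (adjusted p = 0.0490), and this call was lost in 8 of 10 alternatives. ZNHIT1, a subunit of the SRCAP complex, had the highest value, 0.62 (adjusted p = 0.0938), with 34.7 and 55.4 TPM in NC and 80.5 and 57.4 TPM in sh-ANP32B. In the same list, VPS72 (-0.50, adjusted p = 0.0404 by limma) and EP400 (-0.30, adjusted p = 0.0160), named after their values were seen, were called lower. The VPS72 call was lost with quantile normalization (adjusted p = 0.0574). It was also lost without NC replicate 2 (-0.37) and without sh-ANP32B replicate 1 (-0.31). The EP400 call was lost without NC replicate 1 (-0.23) and without sh-ANP32B replicate 2 (-0.28). TSPYL1, also named after its value was seen, was called lower (-0.44), but not with any library left out.

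Of 9 partners of SET and the ANP32 proteins, 6 were lower, 1 was higher and 2 were not called, with a median of -0.35. HMGB2 changed by -0.72, and the nucleases NME1 and APEX1, which are found with SET, by -0.58 each. PPP2CB, a catalytic subunit of PP2A, the phosphatase that ANP32A and SET inhibit, was at 33.3 and 33.0 TPM in NC and at 39.6 and 42.4 TPM in sh-ANP32B (0.30, adjusted p = 0.0142 by limma). This call was lost without NC replicate 1 (adjusted p = 0.0525), without NC replicate 2 (adjusted p = 0.0548) and without sh-ANP32B replicate 2 (adjusted p = 0.0656). The other catalytic subunit, PPP2CA, named after its value was seen, had a higher level and went the other way. It was at 68.85 and 63.23 TPM in NC and at 56.5 and 58.95 TPM in sh-ANP32B. PPP2CA was not called as deposited (-0.19, adjusted p = 0.0546 by limma), but was called lower with median-of-ratios scaling (-0.29, adjusted p = 0.0215). The scaffold subunit PPP2R1A was not called (-0.09, adjusted p = 0.250).

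S-phase genes moved with the replication-coupled chaperones. The Seurat S-phase list was taken without NASP, CHAF1B and the genes named in the lists above. Of its 39 genes, 38 were lower by limma, against 19.7% of all genes tested, and 1 was not called. All 39 values were below 0, and both knockdown libraries lay below both NC libraries for all 39, against 32.1% of all genes. The median log2 fold change of the 39 genes was -0.98. Their summed level was 3503 and 3489 TPM in NC and 1719 and 1706 TPM in sh-ANP32B. DTL (-1.48) and CDCA7 (-1.34) had the lowest values, and UBR7 (-0.38) and TIPIN (-0.22, adjusted p = 0.190) the highest. ASF1B, CHAF1B, NASP, NAP1L1 and CHAF1A, at -1.07 to -0.86, lay within the range of the S-phase genes and near their median, whereas SET, ANP32E and ANP32A lay at its upper end. The part of a lower share of cells in S phase in the fall of the chaperones was not tested.

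**Figure D4:**
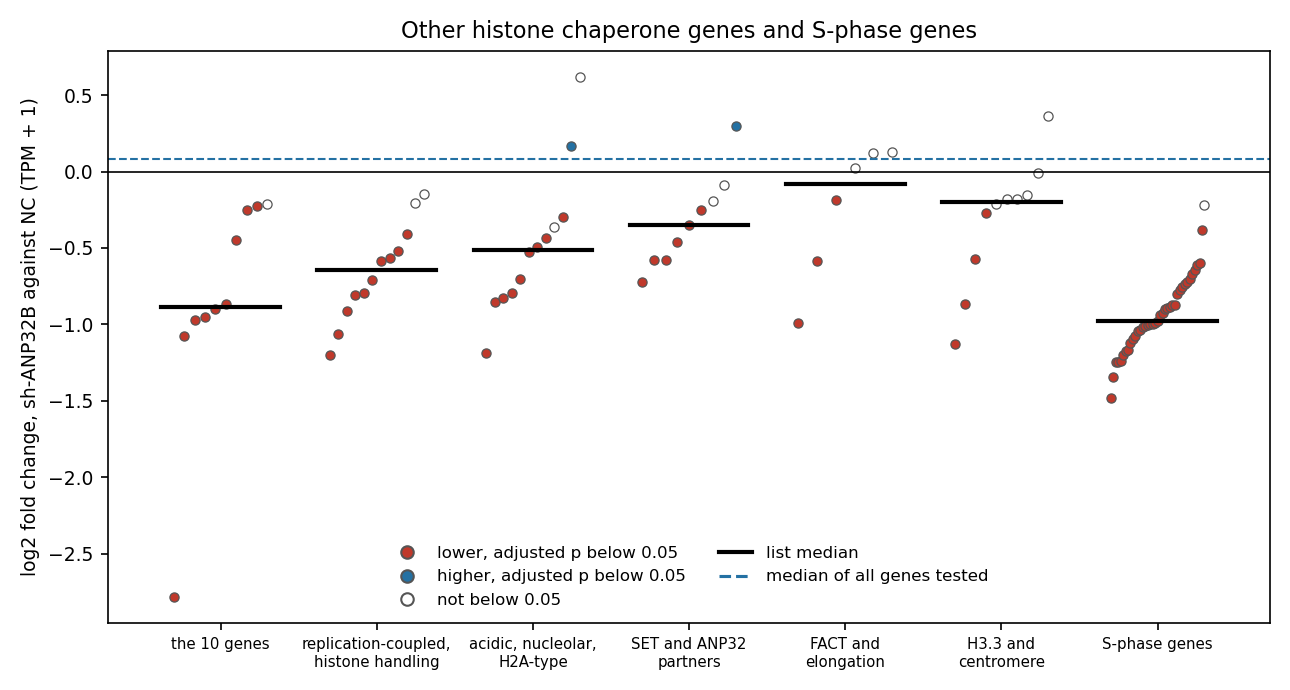
Log2 fold change, sh-ANP32B against NC on the log2(TPM + 1) scale, of the 10 genes, of 5 lists of other chaperones and partners, and of 39 S-phase genes, with 1 point per gene, a bar at each list median and a dashed line at the median of all genes tested. The medians run from -0.98 for the S-phase genes and -0.88 for the 10 genes to -0.20 for the H3.3 and centromere list and -0.08 for the FACT and elongation list.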

How the data were processed

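RNA from MV4-11 cells was sequenced with 2 libraries per group. The authors aligned reads to hg38 with HISAT2 (version 2.0.5) and deposited TPM per gene. The counting tool, annotation and strand setting are not given in the sources used here. The unit was read from the values. Symbols were found for 17290 of 18885 genes, and positions come from GENCODE on hg38. The deposited genes had a mean of at least 0.5 TPM.

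Genes reaching 1 TPM in 2 or more libraries were tested with limma (version 3.58.1, R 4.3.3), with its empirical Bayes step following the trend of variance with level. Values were log2(TPM + 1) of sh-ANP32B against NC, with Benjamini-Hochberg adjustment over 16937 genes. A fold change on this scale understates the change of low genes. The study's DESeq2 test needs counts and was not repeated. The replicate number did not pair the libraries (correlation of deviations -0.0232). The 10 genes, the lists and the tests were chosen with earlier results of these data known. S-phase genes came from Seurat 5.3.0. Named were the 10 genes, their near copies reaching 1 TPM, the 2 lowest and 2 highest genes of each list and list genes called beyond 0.5. Genes whose exons overlap those of the 10 were also given. Alternatives were a replicate block, other filters, a pseudocount of 0.1, other scalings, a fold limit and each library left out. Python 3.11.15, numpy 2.4.6, pandas 2.3.3 and matplotlib 3.10.9 made the tables and plots. The study's other cell line and assays were not used here, and some listed genes are not reported here.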

Additional observations from a re-analysis of the deposited data

How the results depend on the processing

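The fall of ANP32A, ANP32B, ANP32E, SET, NAP1L1, CHAF1A, CHAF1B, ASF1B and NASP kept its direction and its call in the 10 alternatives to the model, filter, scaling and libraries. With the fold limit of 0.5 added to the call, 6 of the 10 genes were lower, and ANP32A, ANP32E and SET were not. Among these, ANP32A ranged from -0.32 to -0.19 (highest adjusted p = 0.0369) and ANP32E from -0.35 to -0.17 (highest adjusted p = 0.0217). NAP1L4 ranged from -0.56 to 0.13 with a library left out, turning to 0.13 without sh-ANP32B replicate 1, and the cause was not tested. Leaving out a library leaves 1 in its group, which is then assumed to vary like the other group. With the replicate block, 9 of the 10 genes were again lower, and 3102 of all genes were lower and 4031 higher, against 3342 and 4405 without the block. The block ended the calls of IWS1 (adjusted p = 0.0740), TSPYL1 (adjusted p = 0.0617) and SRCAP (adjusted p = 0.0826) and no other call among the listed genes. With that limit, 1712 of all genes were lower, by construction. Median-of-ratios scaling called 7 of the 10 H3.3 and centromere genes lower, against 4, by shifting every gene. Lower genes made up 43.1% of calls as deposited, 54.0% with median-of-ratios scaling and 52.7% with quantile normalization, which moved the median of all genes by -0.12. Less that median, ANP32A was at -0.15, ANP32E at -0.13 and SET at -0.35 with quantile normalization, and at -0.31, -0.33 and -0.53 as deposited. TPM keep no read numbers, so depth cannot be weighed.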
